A study of Mus musculus with 8 samples.

Results

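Prostaglandin and leukotriene synthesis was followed in mouse lung through 10 genes chosen by name for their role in the pathway: Pla2g4a, Ptgs1, Ptgs2, Ptges, Ptgis, Hpgd, Alox5, Alox5ap, Ltc4s and Ptger4. They and the gene lists below were chosen with earlier results of these data known. Shares and medians of them, set beside those of all genes, are therefore description and not a test. All 10 were among the 24584 genes of the deposited tables, and all 10 were among the 15706 genes that passed the filter on low counts. The samples were lungs of male wild-type ICR mice aged 6 to 8 weeks. Every mouse received an intraperitoneal dose of 5 mg/kg lipopolysaccharide (LPS, a component of bacterial outer membrane that provokes septic lung injury), and the lungs were taken 12 h later. The LPS group had 4 samples, and the LPS + Tan group had 4 samples from mice that also received 50 mg/kg tangeretin, a citrus flavone, intraperitoneally 30 min before LPS. No group without LPS was analysed here, so the values compare pretreatment with none within injured lung and carry no measure of the response to LPS itself. The labels do not say that each sample is a separate animal, and p-values therefore measure the spread between these samples.

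Eicosanoids are signalling lipids made from arachidonic acid, which cytosolic phospholipase A2 releases from membranes. Cyclooxygenases turn it into prostaglandin H2, the precursor from which terminal synthases make prostaglandin E2, prostacyclin, thromboxane and other prostanoids, while 5-lipoxygenase and its activating protein start the leukotriene branch. The lung is a major site where circulating prostaglandins are taken up and broken down, and leukotrienes are known there as attractants of neutrophils and as constrictors of airways.

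Of the 10 genes, Ptges was lower and Hpgd was higher in the LPS + Tan group at an unadjusted p below 0.05. Ptges encodes microsomal prostaglandin E synthase-1, the inducible enzyme that makes prostaglandin E2, and its level was 0.649-fold that of the LPS group (95% interval 0.513 to 0.821). Hpgd encodes 15-hydroxyprostaglandin dehydrogenase, which inactivates prostaglandin E2 and related prostaglandins, and its level was 1.86-fold (95% interval 1.05 to 3.30). Across all tested genes, 2.87% were higher and 2.25% were lower at that threshold. With edgeR's quasi-likelihood test and Benjamini-Hochberg adjustment, 0 of the 15706 genes had an adjusted p below 0.05, although 804 had an unadjusted p below 0.05, and DESeq2 placed 35 genes and none of the 10 below an adjusted p of 0.05. None of the 10 passed the study's criteria of an unadjusted p below 0.05 with an absolute log2 fold change above 1, which 0.649% of all tested genes passed (0.35% higher and 0.299% lower). The median log2 fold change was 0.16 over the 10 genes and 0.0070 over all tested genes. In these bulk samples, fewer cells of a type and less RNA per cell cannot be told apart.

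Read depth was alike in all 8 samples, with total counts between 38895654 and 39931970, and no sample was far from the rest over the tested genes (mean root mean square difference of log2 CPM to the other samples, 0.491 to 0.557). The number of calls still depended on single samples. Genes at an unadjusted p below 0.05 were 451 higher and 353 lower with all samples. They were 820 and 806 without LPS + Tan replicate 2, 761 and 727 without replicate 4, and 268 and 212 without replicate 1. CPM, the count scaled to library size with TMM factors, was used to compare samples. FPKM, which also divides by gene length, was used to compare genes.

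The level per length differed widely among the 10 genes. Hpgd was first with a mean of 274 FPKM over the 8 samples and a range of 89.6 to 516. Alox5ap, the 5-lipoxygenase activating protein, followed with 103 FPKM and a range of 78.6 to 134, below Hpgd in 7 of 8 samples. Ptgis, which encodes prostacyclin synthase, was next with 31.2 FPKM and a range of 15.5 to 43.8. The ranges of Alox5ap and Ptgis did not overlap, and neither did those of Ptgis and Ptgs1. The other 7 genes lay close together, from Ptgs1 at a mean of 11.1 FPKM through Ptges at 10.9, Ptgs2 at 9.12, Pla2g4a at 7.90, Ltc4s at 5.35 and Alox5 at 3.43 to Ptger4 at 3.31 FPKM. Each neighbouring pair among these 7 had overlapping ranges. Even so, Pla2g4a was above Ltc4s, and Ltc4s above Alox5, in 8 of 8 samples, whereas Ptgs1 was above Ptges, Ptgs2 above Pla2g4a and Alox5 above Ptger4 in only 5 of 8.

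**Figure D1:**
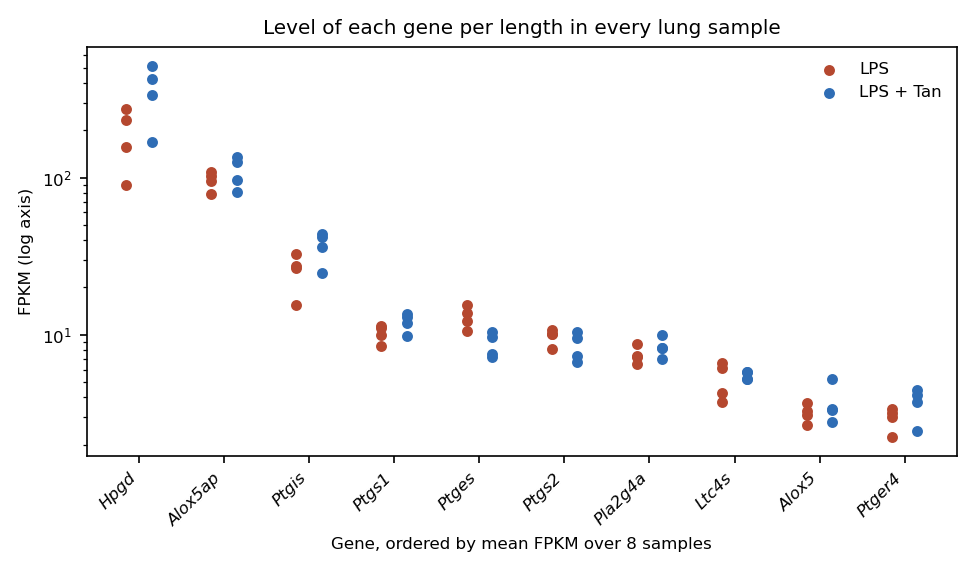
FPKM of the 10 genes (log axis) in each of the 4 LPS samples and 4 LPS + Tan samples, one point per sample, ordered by the mean over the 8 samples. Hpgd spans 89.6 to 516 FPKM, and the 7 genes from Ptgs1 to Ptger4 have means between 3.31 and 11.1.

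The substrate step showed no difference past the threshold. Pla2g4a, which encodes cytosolic phospholipase A2 alpha, had 22.6, 26.4, 23.5 and 20.0 CPM in LPS replicates 1 to 4 and 29.4, 21.3, 23.7 and 25.8 CPM in LPS + Tan replicates 1 to 4. The groups overlapped, and only LPS + Tan replicate 1 lay above every LPS sample. The log2 fold change was 0.12 (SE 0.12, 95% interval -0.15 to 0.39, edgeR p = 0.358, adjusted p = 0.966, exact permutation p = 0.4).

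The 2 cyclooxygenase genes had fold changes of opposite sign, neither of which passed the test. Ptgs1 encodes the constitutive cyclooxygenase-1. Its values were 56.8, 53.6, 43.5 and 49.1 CPM in the LPS group and 61.9, 65.9, 55.2 and 49.7 CPM in the LPS + Tan group. LPS + Tan replicates 1 and 2 exceeded every LPS sample, and the groups overlapped through the other two. This gave a log2 fold change of 0.20 (SE 0.11, edgeR p = 0.112, adjusted p = 0.927, exact permutation p = 0.171).

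Ptgs2 encodes the inducible cyclooxygenase-2 and serves in the study as a marker of ferroptosis at the protein level. The paper reports that PTGS2 protein in lung rose after LPS and was significantly lower with tangeretin. The values here are of RNA, a different measure. Ptgs2 had 45.6, 44.5, 37.6 and 48.5 CPM in the LPS group, a mean of 44.1 ± 4.62 (SD, n = 4). With tangeretin it had 41.1, 29.9, 31.2 and 47.7 CPM, a mean of 37.5 ± 8.48 (SD, n = 4). LPS + Tan replicates 2 and 3 lay below every LPS sample, whereas replicate 4 was above 3 of the 4. The log2 fold change was -0.23 (SE 0.15, 95% interval -0.57 to 0.11), with an edgeR p = 0.156 and adjusted p of 0.930, and p = 0.229 in the exact permutation test. That test is two-sided throughout, over the 70 arrangements of the samples, and its smallest possible value is 0.0286. LPS + Tan replicate 4 decided both cyclooxygenase calls. Without it the log2 fold change was -0.37 for Ptgs2 (edgeR p of 0.0200, adjusted p of 0.441) and 0.27 for Ptgs1 (edgeR p of 0.0327, adjusted p of 0.484), while 4.56% of all tested genes were then lower and 4.78% higher at an unadjusted p below 0.05. Other samples moved the values toward 0. Ptgs2 was at -0.14 without LPS + Tan replicate 2 and -0.16 without replicate 3. Ptgs1 was at 0.13 without LPS replicate 3 or LPS + Tan replicate 2. In FPKM, the ratio of Ptgs2 to Ptgs1 was 0.884, 0.913, 0.950 and 1.08 in the LPS samples and 0.730, 0.498, 0.621 and 1.06 in the LPS + Tan samples. The ratio was below all LPS values in 3 of the 4 LPS + Tan samples and the groups overlapped through replicate 4.

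Ptgs2 lies on the plus strand at chr1:150100031-150108227 in GRCm38, and Pla2g4a on the minus strand at chr1:149829618-149961290. The pair is 138.74 kb apart with 0 protein-coding genes between them. No other GENCODE gene overlaps Ptgs2. The noncoding genes Ptgs2os and Ptgs2os2 on the opposite strand held 12 and 176 counts over the 8 samples, against 12813 for Ptgs2.

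**Figure D2:**
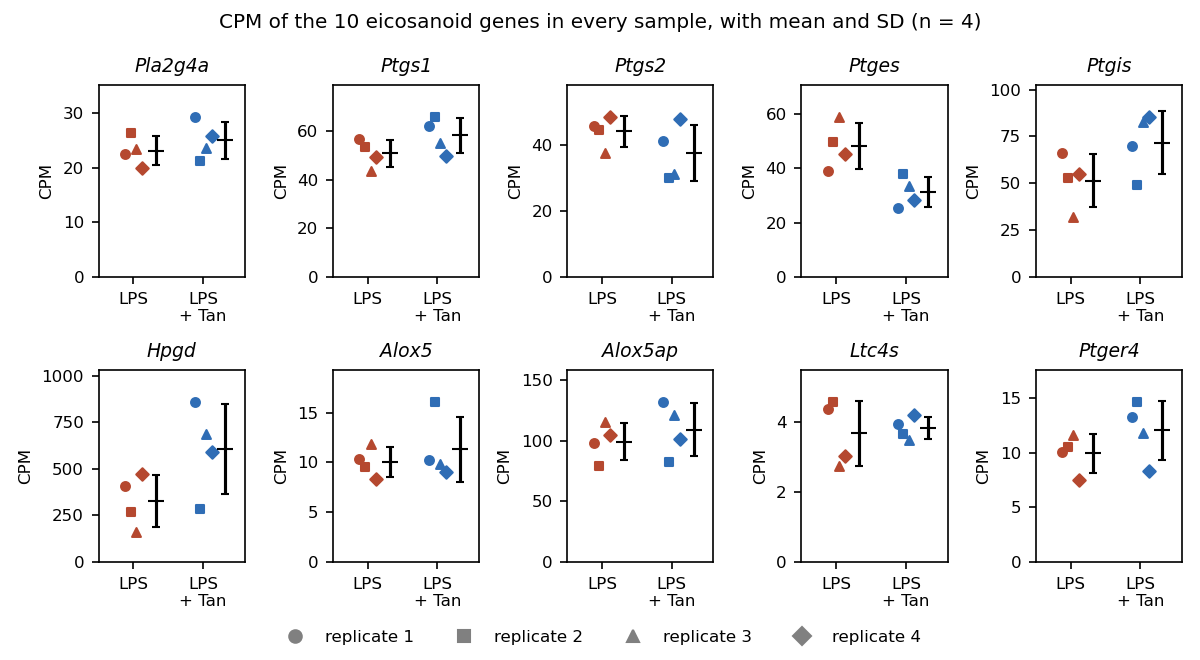
CPM of the 10 genes in each sample, one panel per gene with its own axis from 0, where the marker shape gives the replicate number and the black bar shows the group mean and SD (n = 4). The groups are apart only for Ptges, with 39.1 to 59.1 CPM in LPS and 25.6 to 38.0 CPM in LPS + Tan.

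Among the terminal synthases, Ptges was the one gene of the 10 whose groups did not overlap. It had 39.1, 49.7, 59.1 and 45.2 CPM in the LPS group and 25.6, 38.0, 33.4 and 28.4 CPM in the LPS + Tan group. Every LPS + Tan sample lay below every LPS sample, the nearest values being 38.0 CPM in LPS + Tan replicate 2 and 39.1 CPM in LPS replicate 1. Such separation in the lower direction was found for 1.15% of all tested genes, and in the higher direction for 1.58%, which makes 2.73% in either. The means were 48.3 ± 8.41 CPM and 31.3 ± 5.50 CPM (SD, n = 4 each). This was a log2 fold change of -0.62 (SE 0.15, 95% interval -0.96 to -0.285), with an edgeR p = 0.00211, an adjusted p of 0.850 and an exact permutation p of 0.0286, the smallest that the arrangements allow. By unadjusted p Ptges ranked 37 of the 15706 genes. Its p stayed below 0.05 in 18 of 18 alternative analyses, between 0.000224 with DESeq2 and 0.00732 without LPS + Tan replicate 4, with log2 fold changes from -0.73 to -0.51. The lowest adjusted p among them was 0.079, with DESeq2.

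Ptgis had 66.2, 52.6, 32.1 and 54.7 CPM in the LPS group and 69.8, 49.0, 82.5 and 85.6 CPM in the LPS + Tan group. LPS + Tan replicates 1, 3 and 4 were above every LPS sample, while replicate 2 was below all but LPS replicate 3. The means were 51.4 ± 14.2 CPM and 71.7 ± 16.6 CPM (SD, n = 4 each). Its log2 fold change was 0.48 (SE 0.22, 95% interval -0.019 to 0.98, edgeR p = 0.0577, adjusted p = 0.924, exact permutation p = 0.171). The p fell below 0.05 in 4 of 18 alternatives, at 0.0387 with DESeq2, 0.0340 with no count filter, 0.0239 without LPS replicate 1 and 0.0129 without LPS + Tan replicate 2, where 3.1% and 5.15% of all tested genes were higher in the last 2 fits. In FPKM, the ratio of Ptgis to Ptges was 3.11, 1.95, 0.999 and 2.23 in the LPS samples and 5.02, 2.37, 4.55 and 5.55 in the LPS + Tan samples. It exceeded every LPS value in 3 of the 4 LPS + Tan samples, with replicate 2 inside the LPS range.

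Hpgd, the breakdown enzyme, varied more among the samples than any other of the 10 genes, with a coefficient of variation of 50.6% over the 8 samples against 12.6% to 29.2% for the rest. It had 407, 266, 161 and 470 CPM in the LPS group and 861, 286, 689 and 593 CPM in the LPS + Tan group. LPS + Tan replicates 1, 3 and 4 were above every LPS sample, whereas replicate 2 was below LPS replicates 1 and 4. The means were 326 ± 139 CPM and 607 ± 241 CPM (SD, n = 4 each). This was a log2 fold change of 0.90 (SE 0.37, 95% interval 0.073 to 1.72), with an edgeR p = 0.0357, an adjusted p of 0.924 and an exact permutation p of 0.114. By unadjusted p Hpgd ranked 571. The call depended on single samples, since the edgeR p was 0.0855 without LPS replicate 2, 0.0755 without LPS replicate 3, 0.106 without LPS + Tan replicate 1, 0.0749 without replicate 3 and 0.0591 without replicate 4. Without LPS replicate 1, LPS replicate 4 or LPS + Tan replicate 2, the log2 fold change was between 1.02 and 1.13. Hpgd then passed the study's criteria, which 84 of 15910, 88 of 15903 and 113 of 15917 genes passed in the higher direction. At an unadjusted p below 0.05 alone, 3.1%, 2.91% and 5.15% of all tested genes were higher in these fits.

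The order of the samples for Hpgd was close to the reverse of that for Ptges inside each group. LPS replicate 3 had the highest Ptges and the lowest Hpgd of the LPS samples, at 59.1 and 161 CPM. LPS + Tan replicate 2 had the highest Ptges and the lowest Hpgd of its group, at 38.0 and 286 CPM, and LPS + Tan replicate 1 had the lowest Ptges and the highest Hpgd, at 25.6 and 861 CPM. The same 2 samples, LPS replicate 3 and LPS + Tan replicate 2, were also the lowest of their groups for Ptgis. In FPKM, the ratio of Ptges to Hpgd was 0.0453, 0.0881, 0.173 and 0.0453 in the LPS samples and 0.0140, 0.0626, 0.0228 and 0.0225 in the LPS + Tan samples. It lay below every LPS value in 3 of the 4 LPS + Tan samples, and the groups overlapped through LPS + Tan replicate 2. The relation between the 2 genes was not tested.

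**Figure D3:**
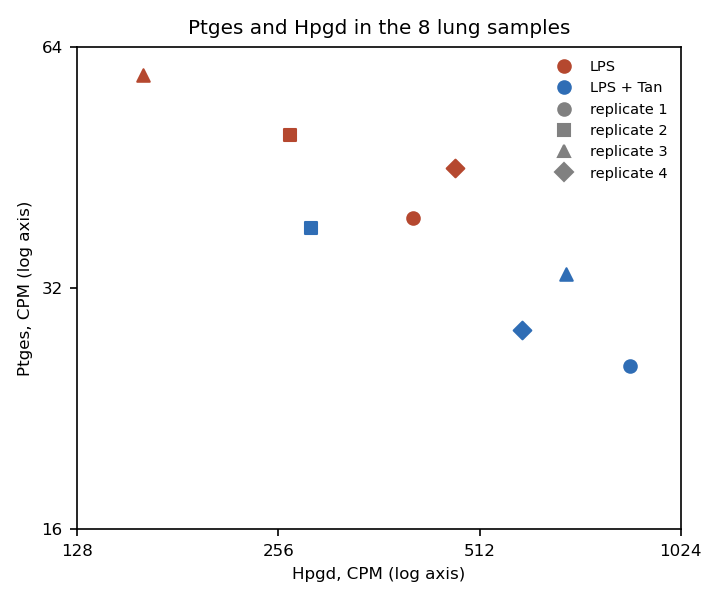
Ptges against Hpgd, both in CPM on log axes, one point per lung sample coloured by group with the replicate number as the marker shape. Ptges separates the groups (25.6 to 38.0 CPM against 39.1 to 59.1 CPM), while Hpgd overlaps, at 161 to 470 CPM in LPS and 286 to 861 CPM in LPS + Tan.

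Markers of other cells were set beside these genes. Of 8 endothelial markers, Kdr and Tek, receptors for vascular endothelial growth factor and angiopoietin, were higher at an unadjusted p below 0.05 (edgeR adjusted p = 0.924 for each), against 2.87% of all tested genes, with log2 fold changes of 0.37 and 0.51. Over the whole list 5 fold changes were positive and 3 negative, where 51.8% of all tested genes were positive, and p was no longer below 0.05 for Kdr in 5 and for Tek in 6 of the 8 fits that left out 1 sample. The summed level of the 8 markers was 1107 to 1276 FPKM in LPS and 1241 to 1350 FPKM in LPS + Tan, with no marker at 0. Tek had 249, 226, 246 and 364 CPM in the LPS group and 472, 234, 445 and 398 CPM in the LPS + Tan group, where replicate 2 was the low sample. Kdr had 271, 222, 237 and 305 CPM in LPS and 418, 345, 309 and 263 CPM in LPS + Tan, where replicate 4 was the low sample and replicate 2 the second highest. Of 10 neutrophil markers and of 8 alveolar type 2 markers, 0 had p below 0.05 in either direction. The neutrophil sum was 7607 to 10237 FPKM in LPS and 6918 to 10500 FPKM in LPS + Tan, and the alveolar type 2 sum was 6354 to 9948 and 6847 to 11222 FPKM, with no marker of either list at 0. Among 8 markers of monocytes and interstitial macrophages, cells that express the leukotriene genes, the complement gene C1qa was the 1 that passed (log2 fold change 0.28, edgeR adjusted p = 0.924). Their sum was 172 to 349 FPKM in LPS and 237 to 381 FPKM in LPS + Tan. Among 7 markers of platelets and megakaryocytes, cells that express Ptgs1, the platelet chemokine gene Ppbp was the 1 that passed (log2 fold change -0.68, edgeR adjusted p = 0.922). Their sum was 23.9 to 29.7 FPKM in LPS and 18.2 to 26.3 FPKM in LPS + Tan. Of 6 erythroid markers 0 passed, and their median log2 fold change was -0.51. The sum was 2275 to 5209 FPKM in LPS and 2160 to 3507 FPKM in LPS + Tan. In the lists of alveolar macrophages, eosinophils, fibroblasts, smooth muscle, mesothelial cells, alveolar type 1 cells, club and ciliated cells, T cells and B cells, 0 markers passed in either direction. Fold changes were positive for 8 of 8 monocyte, 1 of 7 platelet, 0 of 6 erythroid, 7 of 10 neutrophil, 2 of 8 alveolar type 2, 2 of 8 fibroblast, 1 of 6 club and ciliated and 1 of 5 B cell markers, and for 50% to 71.4% of the markers in the other 6 of these lists. C1qa and Ppbp kept an unadjusted p below 0.05 in 18 of 18 alternatives, and no marker of the monocyte, platelet and erythroid lists was at 0. The part of any cell type in the values of the 10 genes was not tested.

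To show where the 2 called genes and Ptgs2 start, the 250 bases before the RefSeq start of each gene are printed from build GRCm38.p6, 5′ to 3′ on the strand of the gene. The Ptges window is chr2:30903298-30903547 on the minus strand, inside the longest GENCODE M21 gene model (chr2:30889471-30929863), and the Hpgd window is chr8:56294302-56294551 on the plus strand, just before the gene model at chr8:56294585-56321043. The Ptgs2 window is chr1:150099781-150100030 on the plus strand. Capitals mark matches, on either strand, to the GC box GGGCGG bound by Sp1 family factors or to the C/EBP pattern TTNNGNAA. None of the marked matches overlap each other.
Ptges: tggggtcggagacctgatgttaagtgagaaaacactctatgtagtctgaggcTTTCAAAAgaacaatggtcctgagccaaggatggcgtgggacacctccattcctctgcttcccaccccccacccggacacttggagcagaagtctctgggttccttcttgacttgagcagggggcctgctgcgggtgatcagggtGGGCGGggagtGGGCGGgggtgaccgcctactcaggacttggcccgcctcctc
Hpgd: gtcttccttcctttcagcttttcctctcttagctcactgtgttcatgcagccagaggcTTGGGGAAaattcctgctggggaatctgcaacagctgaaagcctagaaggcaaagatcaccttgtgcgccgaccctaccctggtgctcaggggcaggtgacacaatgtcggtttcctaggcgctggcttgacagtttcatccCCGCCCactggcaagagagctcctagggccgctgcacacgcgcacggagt
Ptgs2: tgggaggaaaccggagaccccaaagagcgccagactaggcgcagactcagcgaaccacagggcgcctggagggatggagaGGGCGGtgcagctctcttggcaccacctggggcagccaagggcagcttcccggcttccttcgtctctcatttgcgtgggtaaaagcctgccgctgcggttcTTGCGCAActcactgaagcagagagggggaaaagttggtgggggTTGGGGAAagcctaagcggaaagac

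The Ptges window held 2 GC boxes, 53 to 48 and 42 to 37 bases before the start, and 1 C/EBP match 198 to 191 bases before it. The Hpgd window held 1 GC box on the reverse strand, 50 to 45 bases before the start, and 1 C/EBP match 192 to 185 bases before it. The Ptgs2 window held 1 GC box 170 to 165 bases before the start and C/EBP matches 69 to 62 and 25 to 18 bases before it, the former a palindrome that reads the same on both strands. Of 32841 RefSeq windows of this length, 32.7% held a GC box and 36.9% a C/EBP match, so both are common. The TATA box TATAAA (12.4% of windows), the CRE half-site TGACG (17.8%), the antioxidant response element core TGACNNNGC (10.2%), the AP-1 site TGANTCA (6.75%) and the NF-κB consensus (3.90%) had no match in these 3 windows. Sequence further from the RefSeq start, or after it, was not searched, so the promoters may hold such sites there.

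The leukotriene genes showed no difference past the threshold. Alox5, which encodes 5-lipoxygenase, had 10.3, 9.50, 11.9 and 8.32 CPM in the LPS group and 10.2, 16.1, 9.87 and 8.99 CPM in the LPS + Tan group. LPS + Tan replicate 2 stood above the other 7 samples, which overlapped. Its log2 fold change was 0.18 (SE 0.19, 95% interval -0.255 to 0.61, edgeR p = 0.386, exact permutation p = 0.6) and turned to -0.044 without that sample. Alox5ap had 97.9, 79.1, 115 and 104 CPM in LPS and 132, 82.0, 121 and 101 CPM in LPS + Tan. LPS + Tan replicates 1 and 3 exceeded every LPS sample and the groups overlapped. Its log2 fold change was 0.14 (SE 0.16, 95% interval -0.22 to 0.49, edgeR p = 0.404, exact permutation p = 0.486).

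Ltc4s encodes leukotriene C4 synthase, which conjugates leukotriene A4 with glutathione. It had the fewest counts of the 10 genes, 105 to 181 per sample, and 4.37, 4.58, 2.74 and 3.03 CPM in LPS and 3.94, 3.66, 3.50 and 4.21 CPM in LPS + Tan. All 4 LPS + Tan samples lay within the range of the LPS samples. The log2 fold change was 0.055 (SE 0.20, 95% interval -0.39 to 0.495, edgeR p = 0.788, exact permutation p = 0.686). Its sign turned when LPS replicate 3 (-0.063) or LPS replicate 4 (-0.028) was left out. Mast cells and basophils are known producers of leukotriene C4. Of the 5 tested genes of the mast cell and basophil list, 2 were lower at an unadjusted p below 0.05, against 2.25% of all tested genes. Both passed the study's criteria, which 0.299% of all tested genes passed in the lower direction. Of the 5 fold changes 4 were negative, with a median log2 fold change of -0.865. Ms4a2, the beta chain of the high-affinity IgE receptor, had a log2 fold change of -1.09 (edgeR p = 0.00283, adjusted p = 0.850, exact permutation p = 0.0286) and Mcpt8, a basophil protease, one of -1.51 (edgeR p = 0.0174, adjusted p = 0.924, exact permutation p = 0.0857). Both rested on few counts, 11 to 30 per sample for Ms4a2 and 8 to 65 for Mcpt8. The summed level of the list's 8 genes was 39.6 to 43.7 FPKM in LPS and 40.2 to 53.2 FPKM in LPS + Tan. Other genes carried this sum, since Ms4a2 had 0.096 to 0.261 FPKM and Mcpt8 0.178 to 1.46 FPKM, and Fcer1a was at 0 in some samples. The part of these cells in the Ltc4s values was not tested.

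Ptger4 encodes EP4, a receptor for prostaglandin E2 that raises cyclic AMP. It had 10.1, 10.5, 11.7 and 7.49 CPM in the LPS group and 13.3, 14.7, 11.8 and 8.37 CPM in the LPS + Tan group. LPS + Tan replicates 1 to 3 were above every LPS sample and replicate 4 was below 3 of them. The log2 fold change was 0.28 (SE 0.19, 95% interval -0.15 to 0.70, edgeR p = 0.176, adjusted p = 0.932, exact permutation p = 0.257). Without LPS + Tan replicate 4 it was 0.42 (edgeR p of 0.0291, adjusted p of 0.474), in a fit where 4.78% of all tested genes were higher. It was 0.16 without LPS replicate 4 and 0.17 without LPS + Tan replicate 2. Ptger4 overlaps Ttc33 on the opposite strand, which held 9134 counts over the 8 samples against 3468 for Ptger4, so its counts could include reads of that gene. On the same strand, Ptges overlaps Gm13400 and Hpgd overlaps Gm45540, and neither of these was in the deposited tables. Ptgis overlaps 1110018N20Rik on the opposite strand, with 82 counts against 19458 for Ptgis. The part of overlapping genes in any of these counts was not tested.

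**Figure D4:**
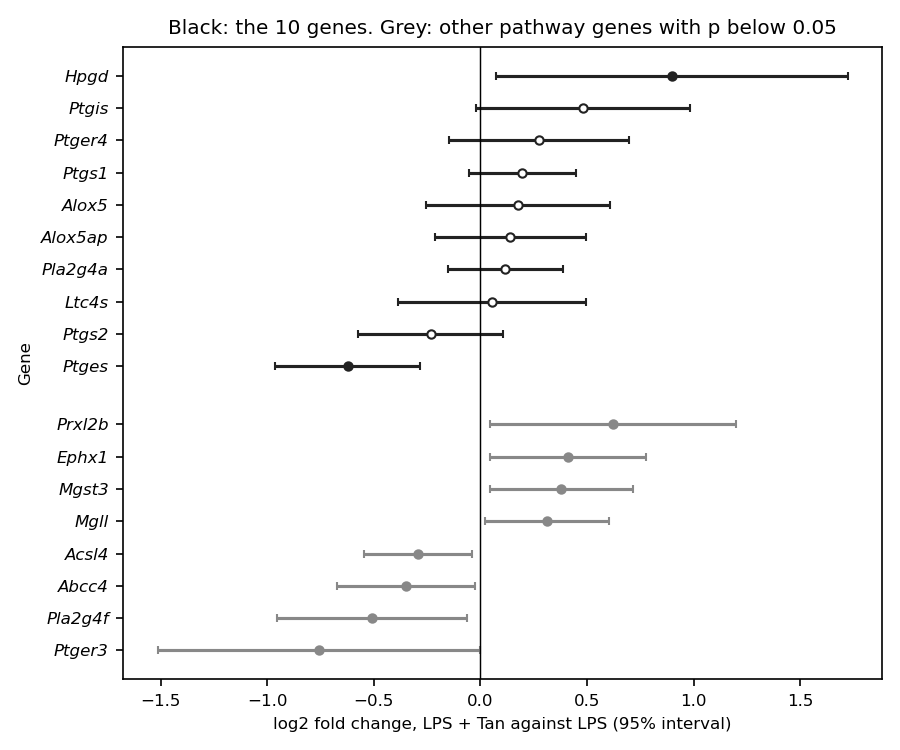
Log2 fold change of LPS + Tan against LPS from edgeR with its 95% interval, for the 10 genes in black and for the 8 other pathway genes with an unadjusted p below 0.05 in grey, where filled points have p below 0.05. Hpgd at 0.90 and Ptges at -0.62 are the 2 genes of the 10 whose intervals leave out 0.

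A list of 70 other genes of the pathway was read in the same fit, of which 65 were in the tables and 53 passed the filter. This list, too, was chosen with earlier results of these data known. At an unadjusted p below 0.05, 4 were higher and 4 were lower, that is 15.1% of the 53 against 5.12% of all tested genes. These counts rested on single samples, and the share of all tested genes moved too. Without LPS replicates 1 to 4 in turn, 6, 2, 2 and 1 were higher, against 3.1%, 2.22%, 1.98% and 2.91% of all tested genes, and 4, 3, 1 and 1 were lower, against 2.54%, 1.91%, 1.71% and 2% of them. Without LPS + Tan replicates 1 to 4 in turn, 0, 5, 1 and 3 were higher, against 1.69%, 5.15%, 1.84% and 4.78%, and 0, 2, 1 and 6 were lower, against 1.33%, 5.06%, 1.88% and 4.56%. In the fit of all samples 0 passed the study's criteria or an adjusted p below 0.05. The median log2 fold change was 0.045, and 0 of the 53 had groups that did not overlap. These 8 genes lay in different steps of the pathway.

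In the supply of arachidonate, Mgll was higher and Pla2g4f and Acsl4 were lower. Mgll encodes monoacylglycerol lipase, which frees arachidonate from 2-arachidonoylglycerol, and had a log2 fold change of 0.31 (SE 0.13, edgeR p = 0.0389, exact permutation p = 0.0857), with 28.6 to 39.8 CPM in LPS and 34.9 to 49.4 CPM in LPS + Tan. Acsl4 encodes the ligase that couples arachidonate to coenzyme A for storage in phospholipids, and is also known for its requirement in ferroptosis. It had 224, 238, 281 and 207 CPM in LPS and 177, 213, 178 and 207 CPM in LPS + Tan, with a log2 fold change of -0.29 (SE 0.11, edgeR p = 0.0269, exact permutation p = 0.0857). LPS + Tan replicates 1 and 3 were below every LPS sample. Pla2g4f, a cytosolic phospholipase A2, had 2.74 to 3.42 CPM in LPS and 1.72 to 2.80 CPM in LPS + Tan, a log2 fold change of -0.51 (SE 0.20, edgeR p = 0.0288, exact permutation p = 0.0571). The other tested genes of arachidonate storage did not pass, with log2 fold changes of -0.035 for Lpcat2, -0.067 for Lpcat3 and -0.091 for Mboat7.

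Among the other terminal synthases, Prxl2b, which encodes prostamide/prostaglandin F synthase, was the one of 7 that passed. It had 1.11 to 2.05 CPM in LPS and 1.82 to 2.98 CPM in LPS + Tan, with a log2 fold change of 0.62 (SE 0.26, edgeR p = 0.0373, exact permutation p = 0.0571) on 43 to 121 counts per sample. The other prostaglandin E synthases did not pass, with log2 fold changes of -0.24 for Ptges2 (SE 0.12, edgeR adjusted p = 0.924) and 0.12 for Ptges3 (SE 0.13, edgeR adjusted p = 0.967). Tbxas1, which encodes thromboxane synthase, had a log2 fold change of 0.15 (SE 0.14, edgeR adjusted p = 0.965). Ptgr1 and Ptgr2, the reductases that act after Hpgd, had values of -0.048 (SE 0.17) and 0.045 (SE 0.11).

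Of the transporters, Abcc4, an exporter of prostaglandin E2 from cells, was lower. It had 30.3 to 45.5 CPM in LPS and 23.8 to 33.0 CPM in LPS + Tan, a log2 fold change of -0.35 (SE 0.14, edgeR p = 0.0369, exact permutation p = 0.0857). Slco2a1, which takes prostaglandins into cells ahead of their breakdown, had the highest level per length of the list, a mean of 93.8 FPKM, and a log2 fold change of 0.064 (SE 0.16, edgeR adjusted p = 0.987). Pla2g7, the platelet-activating factor hydrolase, and Dpep1, which cleaves leukotriene D4, came next with means of 75.7 and 71.2 FPKM, and their log2 fold changes were -0.0070 (SE 0.14) and 0.22 (SE 0.16).

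In the leukotriene branch and among receptors, Mgst3 was higher and Ptger3 was lower. Mgst3, a microsomal glutathione transferase able to make leukotriene C4, had 7.24 to 9.51 CPM in LPS and 8.65 to 12.9 CPM in LPS + Tan, a log2 fold change of 0.38 (SE 0.15, edgeR p = 0.0306, exact permutation p = 0.0857). Ephx1, the microsomal epoxide hydrolase, had 21.4 to 38.5 CPM in LPS and 37.1 to 46.1 CPM in LPS + Tan, a log2 fold change of 0.41 (SE 0.16, edgeR p = 0.0306, exact permutation p = 0.0571). Ptger3, the prostaglandin E2 receptor EP3, had 0.861 to 1.61 CPM in LPS and 0.462 to 0.936 CPM in LPS + Tan, on 19 to 63 counts per sample, with a log2 fold change of -0.76 (SE 0.34, edgeR p = 0.0498, exact permutation p = 0.0857). The adjusted p of each of these 8 genes was 0.924, and each lost p below 0.05 when some single sample was left out. Ptger1, Ptger2 and the prostacyclin receptor Ptgir did not pass, with log2 fold changes of -0.29, 0.071 and 0.19.

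The genes with the most similar profile over the 8 samples were taken for the 4 members that varied most, by the root mean square difference of centred log2 CPM among 11255 genes. For Ptges they were Prkcq (0.127), Asap3 (0.136) and Tbc1d8 (0.148). For Hpgd they were Higd1b (0.224), Pdgfd (0.238) and Amigo2 (0.239). This measure grows with the spread of the gene itself, whose SD of log2 CPM was 0.803 for Hpgd and 0.406 for Ptges. For Ptgis they were Haus8 (0.0940), Cav1 (0.139) and Snx22 (0.141), and for Ptger4 Pik3cg (0.0853), Mpzl1 (0.127) and Thbs1 (0.129).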

How the data were processed

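RNA-seq of 8 lung samples was analysed. The authors deposited raw counts per gene and FPKM values for the same 24584 genes. Submitters' processing notes name the builds GRCm38 and mm10, and the sources used here do not give the aligner, counter and strand setting. The extraction and library kits in the labels differ from those in the study's methods. Deposited FPKM equalled the counts per length and total count, since 14547 of 14547 genes with at least 10 counts in every sample gave one length within 1%.

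The count test was that of edgeR 4.0.16 under R 4.3.3 (filterByExpr, TMM, quasi-likelihood test, no covariate, Benjamini-Hochberg adjustment over 15706 genes), and the script was tested on simulated data. SE was the log2 fold change divided by the square root of F. Alternatives used DESeq2 1.42.0, limma 3.58.1, other scaling and filters, a replicate block and each sample left out. Members and lists were chosen with earlier results of these data known. All members were named, with other pathway genes at p below 0.05 or among the 3 highest in FPKM. Nearest profiles were taken for members with an SD of log2 CPM of at least 0.3, among genes of mean CPM at least 5. Positions are from GENCODE M21, and sequences, held for 8 of 10 members (not Ptgis and Alox5ap), from RefSeq. Pla2g2a, Pla2g2f, Pla2g4b, Ptgr3 and Oxgr1 were not analysed here. Files held 0 columns without a sample. The groups share replicate numbers, but the deviations of same-numbered samples did not correlate in every pair.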

Additional observations from a re-analysis of the deposited data

Results flagged for a closer look

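Of 82 groups of 4 samples examined over the log2 CPM of the named genes, the marker sums and the ratios, 1 had a sample far from the rest, where chance gives about 4.1. Dpep1, which cleaves leukotriene D4, had 104 CPM in LPS replicate 3 against 166, 174 and 168 CPM in the other LPS samples. On the log2 scale the gap to the nearest sample was 0.906 of the range of the group, above Dixon's 95% limit for 4 samples. The same sample had the lowest Hpgd and Ptgis and the highest Ptges of the LPS group.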

How the results depend on the processing

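Over the 10 genes and 18 alternatives, 164 of 180 results kept their direction and their side of the 0.05 threshold. A further 7 passed and 6 no longer passed, and 3 turned sign. As samples were left out, the log2 fold change of Alox5 ran from -0.044 (without LPS + Tan replicate 2) to 0.27, and that of Ltc4s from -0.063 (without LPS replicate 3) to 0.17. That of Pla2g4a ran from 0.028 to 0.19 and that of Alox5ap from 0.031 to 0.25, both lowest without LPS + Tan replicate 1. Ptges passed in all 18, whereas Hpgd, Ptgis, Ptgs1, Ptgs2 and Ptger4 crossed the threshold in at least 1, and the cause was not tested. Leaving out each sample in turn gave 0 to 2 of the 10 higher and 1 to 2 lower at p below 0.05, with 0 to 1 past the study's criteria. DESeq2 and no count filter gave 2 higher each, and limma on log2(FPKM + 1) of all genes 0. In these 3 fits 572, 631 and 848 of 24584 genes were higher at p below 0.05. Of the other pathway genes, 0 to 6 were higher and 0 to 6 lower as samples were left out. The replicate block left 2 lower and changed no call among the 10 genes, while the numbers did not pair the samples (correlations of deviations 0.12, -0.031, -0.15 and 0.020). DESeq2 and no count filter each placed 1 pathway gene past the study's criteria in the lower direction. Both fits took in 65 pathway genes, among them those of few counts that the filter had removed.

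Over all genes, the 55 higher and 47 lower genes past the study's criteria became 113 and 111 with DESeq2, 5 and 9 with limma on log2(FPKM + 1), 19 and 21 with limma on log2(FPKM + 0.1), 5 and 6 with limma on all genes, 220 and 198 with no filter, 18 and 23 where 4 samples had to reach 1 CPM, and 37 to 113 and 38 to 125 as samples were left out. Genes at p below 0.05 numbered 848 higher with limma on all genes, 569 lower with no filter, and 268 to 820 higher and 212 to 806 lower as samples were left out. Genes at an adjusted p below 0.05 numbered 35 with DESeq2, 2 with limma on all genes and 0 to 1 as samples were left out. The 2 highly expressed genes near 0 turned sign. Slco2a1 was at -0.044 to 0.17 as samples were left out. Pla2g7 was at 0.0019 with limma-voom, 0.044 in the 3 FPKM fits, 0.0043 with upper-quartile scaling, 0.0030 with the replicate block and -0.10 to 0.13 as samples were left out. Ltc4s and Ptger3 had few counts (105 to 181 and 19 to 63 per sample), and what depth limits was not tested.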
